A study of Mus musculus with 3 samples.

Results

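The 10 genes described here encode the switch that lets a cell leave the G1 phase of its cycle: the D-type cyclins Ccnd1, Ccnd2 and Ccnd3, their kinases Cdk4 and Cdk6, the inhibitors Cdkn2a, Cdkn2b, Cdkn2c and Cdkn1b, and Rb1, the retinoblastoma gene. They were chosen by name, with earlier results of these data known, and all 10 were among the 25791 gene symbols of the deposited table. Their values were read in YUMM2.1, YUMM1.7 and YUMM1.1, which are mouse melanoma lines sequenced once each from total RNA, 3 libraries in all, for a series on PD-1 blockade. The labels name no treatment for these libraries and no genotype for the lines. As the lines are known from their makers' description, YUMM1.1 and YUMM1.7 come from melanomas with mutant Braf and with Cdkn2a deleted, among other alleles. YUMM2.1 comes from a melanoma with mutant Braf, a stabilized beta-catenin allele and 1 deleted allele of Cdkn2a, among others. Each line is a single derivation, and no spread between cultures can be given.

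A D-type cyclin binds Cdk4 or Cdk6, and the pair phosphorylates the retinoblastoma protein, which then releases E2F transcription factors to start DNA replication. INK4 proteins, encoded by Cdkn2a, Cdkn2b, Cdkn2c and Cdkn2d, bind Cdk4 and Cdk6 and keep the cyclins off them. In melanoma, mitogenic signaling through Braf raises cyclin D1, and loss of the Cdkn2a locus or activation of CDK4 is a recurrent lesion of the human disease.

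Values are FPKM, which divides the fragments of a gene by its transcript length and by a measure of library size. Which measure the authors used is not given by the labels. A gene was called expressed at 1 FPKM or more in at least 1 line, which held for 11741 symbols and for 10 of the 10 G1 genes. Differences are of log2(FPKM + 1), and genes are called higher or lower from a difference of 1 upward, which is 2-fold on that scale. No p-value is given, since 1 library per line leaves nothing to test against.

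The spacing of the lowest values would imply depths of about 46.3 M fragments in YUMM1.7, 68.5 M in YUMM1.1 and 87.2 M in YUMM2.1. These are sequenced depths only if each library was divided by its own total. If the values were also scaled between libraries, the figures carry those scale factors. A value listed at 0 can also be a failed estimate in such a table: Rpl41, an abundant ribosomal protein gene, was listed at 0 in YUMM1.7. Of the symbols at 10 FPKM or more in both other lines, 3 were listed at 0 in YUMM2.1, 2 in YUMM1.1 and 9 in YUMM1.7. As a check of the label, 7 melanocyte markers summed to 52.1 FPKM in YUMM2.1, 108 in YUMM1.1 and 1.0 in YUMM1.7, where 3 of the 7, Tyrp1, Dct and Mlana, were at 0. Sox10, a neural crest transcription factor, carried the first 2 sums, at 44.3 and 107 FPKM. The other 6 markers were each at most 0.318 FPKM in YUMM1.1, where Tyrp1 was at 0, so pigment cell genes were nearly absent there. In YUMM2.1, Mlana reached 6.18 FPKM and Mitf 1.23, but Si (Pmel), Tyr, Tyrp1 and Dct were each at most 0.187 FPKM there too. The 7 fibroblast markers summed to 4.24, 0.944 and 168.5 FPKM in the same order. In YUMM1.7 the collagen gene Col1a2 stood at 127 FPKM, Pdgfra at 13.9, Pdgfrb at 13.0 and Cd34 at 11.7. Dcn was at 1.40 FPKM there, and Lum was at 0 there and in YUMM1.1. Of the 6 expressed fibroblast markers, 5 were higher in YUMM1.7 than in each other line by the 2-fold rule. The exception was Col1a1, another collagen gene, at 1.79 FPKM in YUMM1.7 against 1.17 in YUMM2.1 and 0.455 in YUMM1.1. The 8 leukocyte markers summed to 33.1, 5.42 and 1.39 FPKM. Lyz2 (25.9, 4.96 and 0.048 FPKM), Cd68 (4.27, 0.362 and 0.687) and Cd53 (3.01, 0.0215 and 0.658) were higher in YUMM2.1 than in both others by the 2-fold rule. Ptprc, which encodes the pan-leukocyte antigen CD45, was at 0.00217 FPKM in YUMM2.1 and at 0 in both others. The 4 endothelial markers summed to less than 0.2 FPKM in every line. What these marker differences reflect in the cultures, and their part in the results below, was not tested.

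The inhibitor genes Cdkn2a and Cdkn2b stand side by side on chromosome 4. Cdkn2a makes 2 proteins from separate first exons, the INK4 protein p16 and the p53 activator Arf. In the reference annotation their transcripts, of 852 and 895 nt, share a run of 578 nt, so a value per gene symbol cannot tell them apart. Cdkn2b encodes p15, an INK4 protein known to be raised by TGF-beta. The start regions are shown because both genes were listed at 0 in the same line, and because the 2 start regions of Cdkn2a differ in make-up. They are from RefSeq on build GRCm38.p6, minus strand, from 250 bases before to 50 after each start. Capitals mark the E2F words TTTCCCGC and TTTGGCGC and the GC box GGGCGG, searched on both strands; no marked words overlap.
Cdkn2a, Arf start, chr4:89294570-89294869: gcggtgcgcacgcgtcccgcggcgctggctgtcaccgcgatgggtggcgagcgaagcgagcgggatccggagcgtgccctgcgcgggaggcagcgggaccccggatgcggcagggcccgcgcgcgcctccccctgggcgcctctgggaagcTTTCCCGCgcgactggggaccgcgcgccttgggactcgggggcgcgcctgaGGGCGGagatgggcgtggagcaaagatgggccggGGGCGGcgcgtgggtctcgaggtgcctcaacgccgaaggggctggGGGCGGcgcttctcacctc
Cdkn2a, p16 start, chr4:89282143-89282442: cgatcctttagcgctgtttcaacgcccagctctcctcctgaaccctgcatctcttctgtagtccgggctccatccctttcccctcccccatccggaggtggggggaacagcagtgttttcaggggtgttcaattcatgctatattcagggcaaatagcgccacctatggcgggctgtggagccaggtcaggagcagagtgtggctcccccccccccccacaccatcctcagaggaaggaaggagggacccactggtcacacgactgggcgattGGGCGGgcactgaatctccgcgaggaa
Cdkn2b, chr4:89310983-89311282: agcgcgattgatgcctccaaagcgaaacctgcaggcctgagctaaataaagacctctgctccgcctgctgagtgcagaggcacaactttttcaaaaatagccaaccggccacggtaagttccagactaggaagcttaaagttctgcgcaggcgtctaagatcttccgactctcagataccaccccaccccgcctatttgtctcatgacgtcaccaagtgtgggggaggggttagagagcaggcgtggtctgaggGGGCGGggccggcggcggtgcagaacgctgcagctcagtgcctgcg

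The Arf start held 45 CG dinucleotides and 77.0% G and C, against 12 and 60.3% at the p16 start and 18 and 57.7% at Cdkn2b. The median of all 32851 start regions in the table was 7 CG dinucleotides and 52.7%. An E2F word was found at the Arf start, 1 in all, and in 1.56% of all start regions. The GC box was found 3 times at the Arf start and 1 time at each of the other 2, and 35.7% of all start regions hold it. These are matches of letters and say nothing of what binds there.

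Cdkn2a had 8.41 FPKM in YUMM1.1 but 5.84 in YUMM1.7, and YUMM2.1 was listed at 0. On a transcript of 895 nt, 3 fragments in YUMM2.1 would correspond to 0.0384 FPKM, counting error only. In bulk RNA, fewer cells with a transcript and less transcript per cell cannot be told apart. The 2 lines in which Cdkn2a was measured had middling levels, at percentile 52.8 of expressed genes in YUMM1.1 and 44.8 in YUMM1.7. This order is the reverse of the one the makers' description would give, in which YUMM1.1 and YUMM1.7 have both alleles deleted and YUMM2.1 keeps 1. The part of the gene that the engineered deletion removes is not given in the sources used here, and reads from a remaining part would still count for the symbol, so these values do not check the genotype.

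Cdkn2b had 58.5 FPKM in YUMM1.1 but 0.587 in YUMM1.7, and YUMM2.1 was again listed at 0. Only YUMM1.1 had a level in the upper part of the range (percentile 87.1), 99.7-fold above YUMM1.7. In YUMM1.7, Cdkn2b lay at percentile 6.74, with an implied count of about 38 fragments. Its transcript shares no run longer than 23 nt with either Cdkn2a transcript, and the best local alignments of 219 and 254 nt had 80.4% and 78.7% identity. How reads that fit both genes were counted is not stated.

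Cdkn2c encodes p18, an INK4 protein whose gene lies elsewhere on chromosome 4. It stood at 36.2 FPKM in YUMM2.1, 52.5 in YUMM1.1 and 52.0 in YUMM1.7. All 3 lines lay within 1.45-fold of each other, at percentiles 84.0 to 86.0. Cdkn2d, which encodes the fourth INK4 protein, p19, stood at 10.1, 12.3 and 12.3 FPKM. In these libraries the INK4 genes differed by locus: the neighbors Cdkn2a and Cdkn2b varied between lines, and Cdkn2c and Cdkn2d were within 2-fold in each pair of lines.

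**Figure D1:**
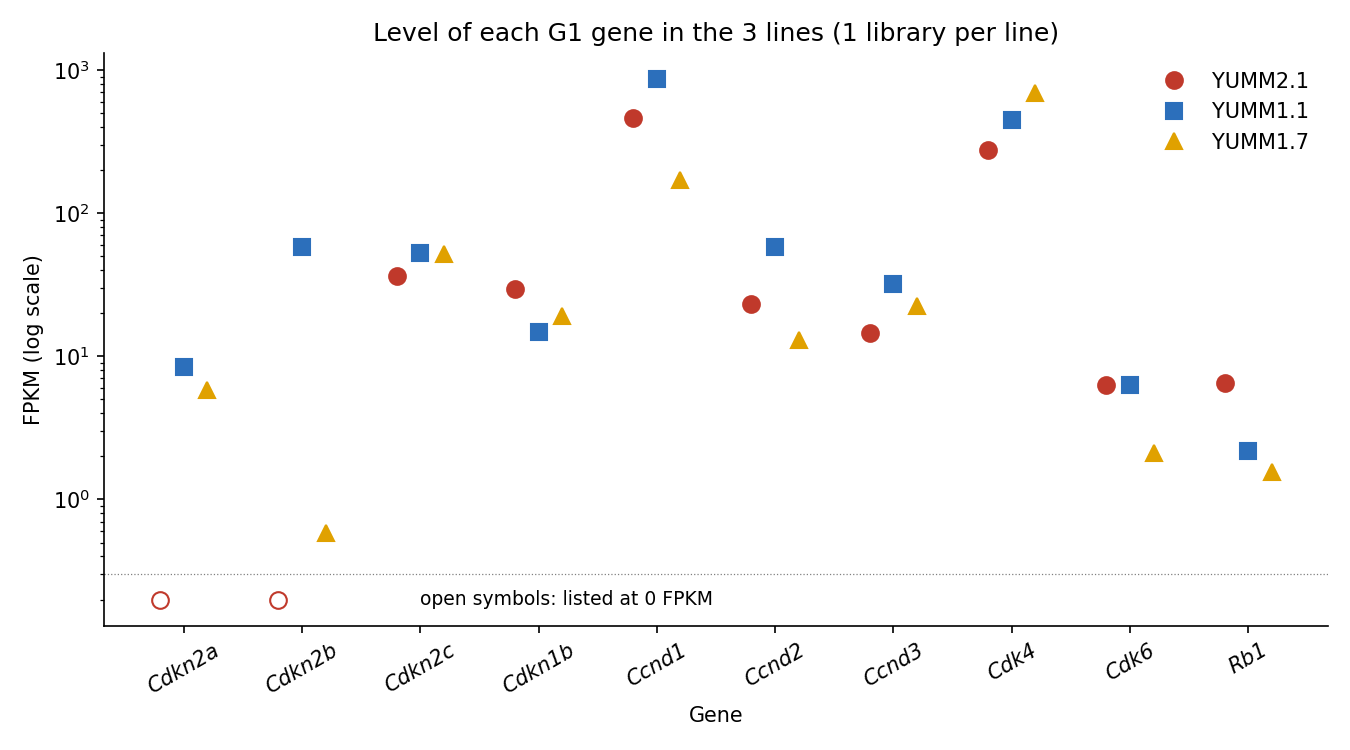
FPKM of each of the 10 G1 genes (log axis) in YUMM2.1 (circles), YUMM1.1 (squares) and YUMM1.7 (triangles), 1 library per line; open symbols at the bottom stand for values listed at 0. Cdkn2a and Cdkn2b are at 0 in YUMM2.1, Cdkn2b stands at 58.5 in YUMM1.1 and at 0.587 in YUMM1.7, and Ccnd1 and Cdk4 are the most abundant members in each line.

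The zeros of YUMM2.1 continued into the neighboring genes. In chromosome order, the expressed genes Mllt3, Ptplad2, Klhl9, Mtap, Cdkn2a, Cdkn2b and Dmrta1 follow one another, and each was below 0.1 FPKM in YUMM2.1. Mtap, the methionine salvage gene next to Cdkn2a, had 59.4 FPKM in YUMM1.1, 83.7 in YUMM1.7 and a listed 0 in YUMM2.1. Klhl9, which encodes a ubiquitin ligase adaptor, stood at 0.00272 FPKM in YUMM2.1, an implied 0.991 fragments, against 19.3 and 9.84 FPKM. Ptplad2 was listed at 0 against 2.02 and 2.04, and Dmrta1 at 0 against 0.0685 and 1.58.

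At one end of this run the value in YUMM2.1 was low but not 0. Mllt3, which encodes a chromatin reader of the AF9 family, stood at 0.0426 FPKM in YUMM2.1, an implied 22.5 fragments, where YUMM1.1 had 2.37 and YUMM1.7 had 2.08. On the side of Mllt3 the next expressed gene was the ribosomal protein gene Rps6, at 495 FPKM in YUMM2.1, 1432 in YUMM1.1 and 2956 in YUMM1.7. On the side of Dmrta1 the next was Tusc1, at 3.46, 0.300 and 0.407 FPKM, and it was at least 2-fold higher in YUMM2.1 than in either other line. It was followed by 5830433M19Rik (Caap1) at 2.39, 2.32 and 2.63 FPKM.

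Between Mllt3 and Dmrta1 inclusive the table held 38 symbols, most of them interferon genes. In YUMM2.1, 36 of the 38 were listed at 0 and 38 were below 0.1 FPKM. In YUMM1.1, 25 were listed at 0, and in YUMM1.7, 23 were, the latter being the 23 at 0 in all 3 lines. The run was delimited after its values were seen and gets no test. Whether the DNA of the region is present in the line was not measured here. The 3 nearest symbols on each side of Cdkn2b and Cdkn2a also included Ifna1, Ifne, Zfp352 and Elavl2, and none of these reached 0.1 FPKM in any line.

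**Figure D2:**
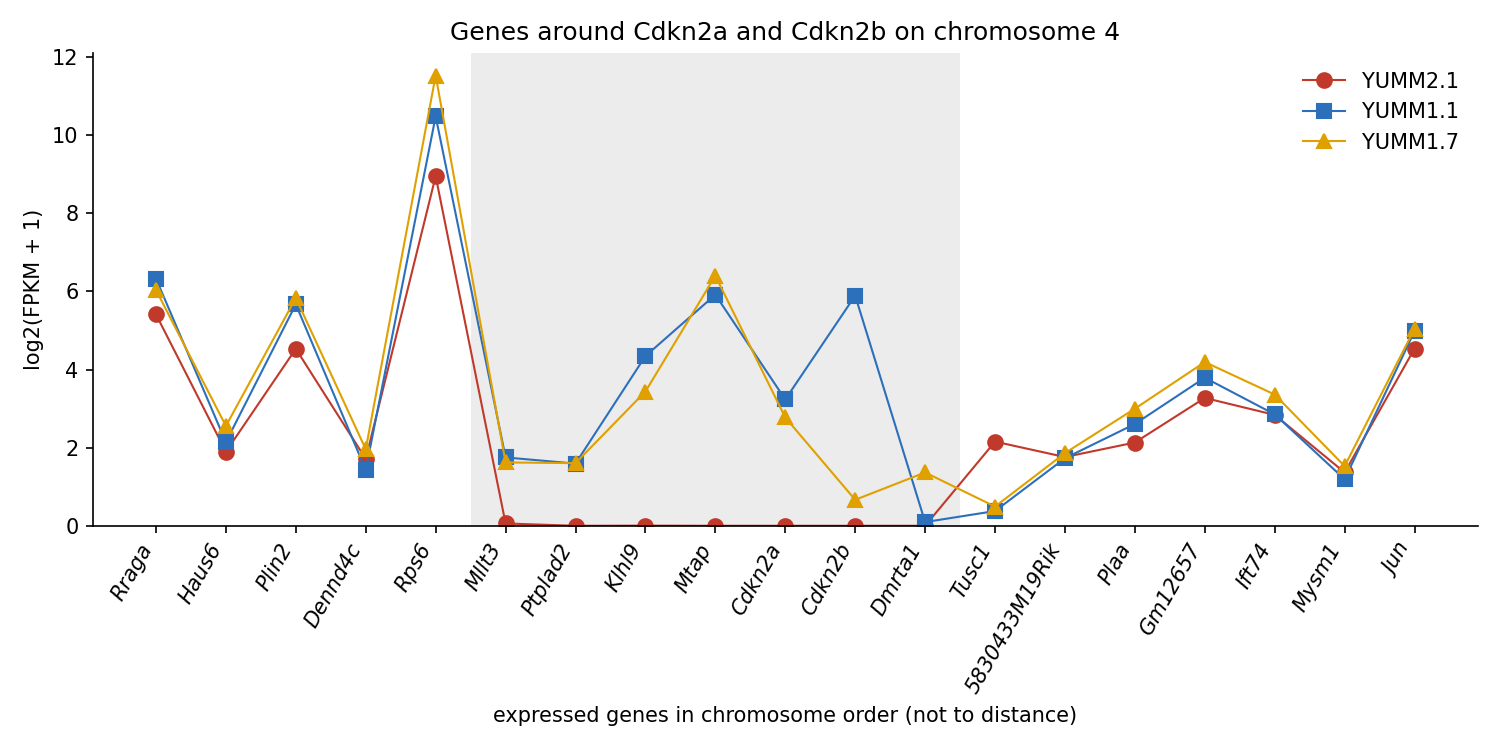
log2(FPKM + 1) of the expressed genes around Cdkn2a and Cdkn2b on chromosome 4, in chromosome order and not to distance, for YUMM2.1 (circles), YUMM1.1 (squares) and YUMM1.7 (triangles). In the shaded run from Mllt3 to Dmrta1, each of the 7 genes is below 0.1 FPKM in YUMM2.1, whereas Rps6 and Tusc1 on either side are measured there.

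Cdkn1b encodes p27, an inhibitor that acts mainly on cyclin E and Cdk2 and that also binds cyclin D complexes. It stood at 29.7 FPKM in YUMM2.1, 14.8 in YUMM1.1 and 19.2 in YUMM1.7. YUMM2.1 was the highest, 2.01-fold above YUMM1.1 and 1.55-fold above YUMM1.7. On the log2(FPKM + 1) scale its difference from YUMM1.1 was 0.96, just under the 2-fold rule, and that from YUMM1.7 was 0.60.

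Ccnd1, which encodes cyclin D1, stood at 462 FPKM in YUMM2.1, 865 in YUMM1.1 and 169.9 in YUMM1.7. It ranked 230, 181 and 823 among the 11741 expressed genes in the same order. YUMM1.1 was 1.87-fold above YUMM2.1 and 5.09-fold above YUMM1.7, and YUMM2.1 was 2.72-fold above YUMM1.7. Of its neighbors on chromosome 7, those directly on either side stayed near or within 2-fold between lines. Oraov1 stood at 6.53, 6.98 and 3.39 FPKM and Tpcn2, an endolysosomal channel gene, at 3.65, 6.16 and 4.85. Fgf4, Fgf15 and Gm2572 were below 0.2 FPKM in the 3 lines, and Mrgprf, the third gene beyond Ccnd1, stood at 0.188, 18.8 and 5.84 FPKM.

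Ccnd2, which encodes cyclin D2, stood at 23.2 FPKM in YUMM2.1, 57.6 in YUMM1.1 and 13.0 in YUMM1.7. Its lines came in the same order as for Ccnd1, with YUMM1.1 2.48-fold above YUMM2.1 and 4.42-fold above YUMM1.7. Ccnd3, which encodes cyclin D3, stood at 14.6, 31.9 and 22.6 FPKM. Here too YUMM1.1 was the highest, but YUMM1.7 lay above YUMM2.1, at 1.54-fold. Cyclin D1 thus made up most of the D-cyclin transcript in every line: Ccnd1 held 92.4% of the summed D-cyclin FPKM in YUMM2.1, 90.6% in YUMM1.1 and 82.7% in YUMM1.7. Ccnd3 had a share of 2.93%, 3.34% and 11%, and Ccnd2 one of 4.65%, 6.03% and 6.33%.

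Cdk4 was the more abundant kinase gene. It stood at 277 FPKM in YUMM2.1, 447 in YUMM1.1 and 688 in YUMM1.7, at percentiles of 97.1 to 97.4. Unlike the cyclins, it was highest in YUMM1.7, 2.48-fold above YUMM2.1 and 1.54-fold above YUMM1.1. Both directions turned with the libraries rescaled to a common sum (log2 differences of 0.09 for YUMM2.1 against YUMM1.7 and -0.19 for YUMM1.7 against YUMM1.1). All expressed genes had medians of 1.12 and -0.62 under that scaling. Both directions stayed with a common upper quartile (-1.08 and 0.58) and with the median ratio (-1.31 and 0.62). The 2-fold call against YUMM2.1 ended, at -0.95, once the median of genes of like length was subtracted. Cdk6, its close relative, stood at 6.29, 6.31 and 2.11 FPKM. The ratio of YUMM2.1 to YUMM1.1 was 0.998 for Cdk6, and YUMM1.7 was 2.99-fold below each of them. Cdk4 exceeded Cdk6 by 44.1-fold in YUMM2.1, 70.9-fold in YUMM1.1 and 326-fold in YUMM1.7, as FPKM ratios within a line. The annotated transcript of Cdk6 is long, 11525 nt against 2053 nt for Cdk4, so its FPKM rests on the transcript length the authors used.

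Rb1 stood at 6.49 FPKM in YUMM2.1, 2.20 in YUMM1.1 and 1.56 in YUMM1.7. YUMM2.1 was 2.95-fold above YUMM1.1 and 4.16-fold above YUMM1.7, which differed from each other by 1.41-fold. Its relative Rbl1, which encodes the pocket protein p107, came in the same order, at 14.4, 8.37 and 6.39 FPKM. Rbl2, which encodes p130, stood at 2.49, 2.86 and 2.38 FPKM.

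The counts of G1 genes past 2-fold are read against the share of all expressed genes past it. In YUMM2.1 against YUMM1.1, 4 of the 10 were at least 2-fold lower in YUMM2.1 (Cdkn2a, Cdkn2b, Ccnd2 and Ccnd3) where the background was 7.64%, and 1 was higher (Rb1) where it was 6.21%. The median difference was -0.80 for the 10 genes and -0.05 for all expressed genes. In YUMM2.1 against YUMM1.7, 3 were higher (Ccnd1, Cdk6 and Rb1) against a background of 11.7%, and 2 were lower (Cdkn2a and Cdk4) against 19.5%, which is near the background. The medians there were 0.05 and -0.02. In YUMM1.7 against YUMM1.1, 4 were lower (Cdkn2b, Ccnd1, Ccnd2 and Cdk6) against a background of 9.91%, and 0 were higher against 13.5%. The medians were -0.47 and 0.02. Each line enters 2 of these comparisons, so they are not independent of one another. The 10 genes were chosen with earlier results of these data known, so the counts are no test against the background. Cdkn2a and Cdkn2b lie in the same run of low values in YUMM2.1 and are not separate observations there. The call of Ccnd3 in YUMM2.1 against YUMM1.1 held in 2 of 6 alternatives.

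**Figure D3:**
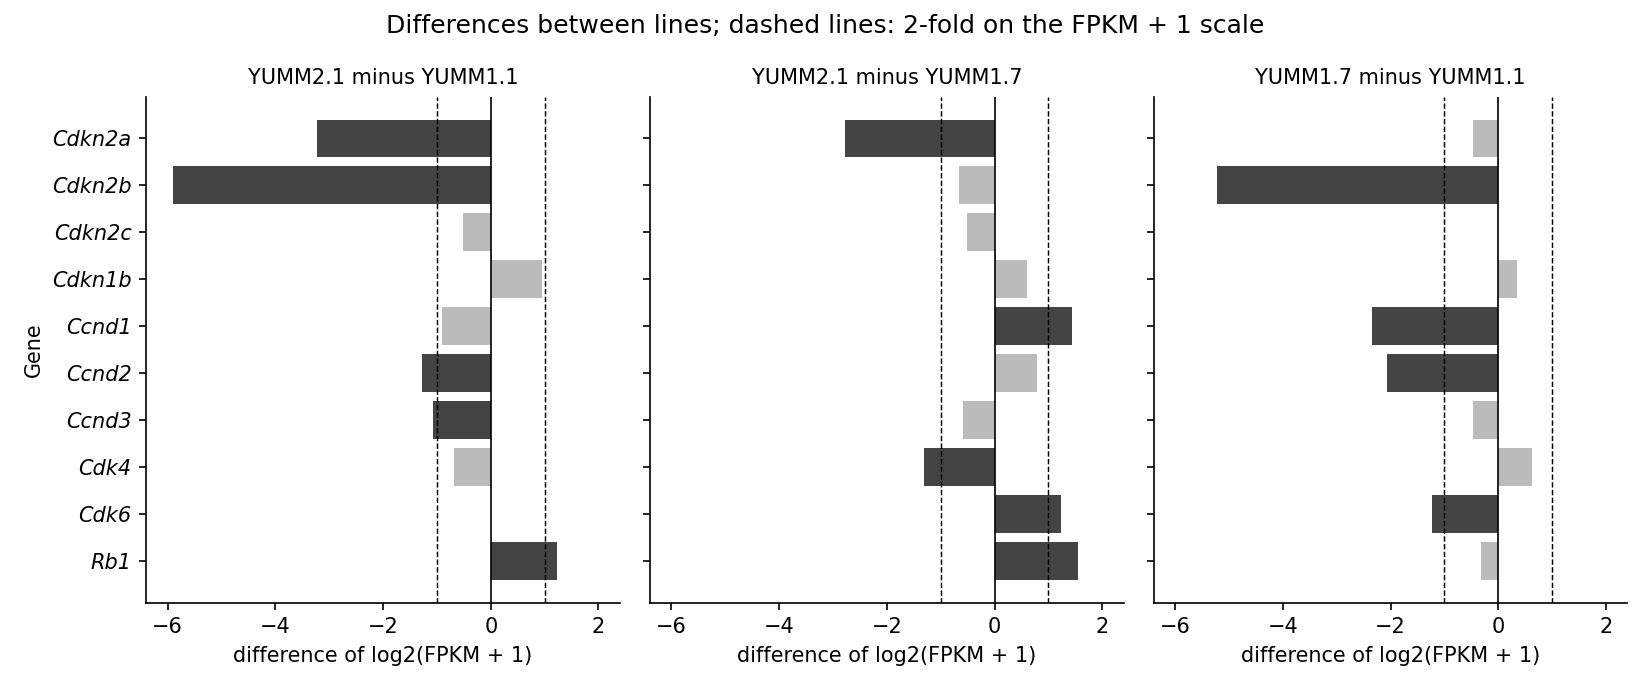
Difference of log2(FPKM + 1) for each of the 10 G1 genes in the 3 pairs of lines, with bars past the dashed 2-fold lines in dark grey. Cdkn2b has the longest bars, -5.89 for YUMM2.1 minus YUMM1.1 and -5.23 for YUMM1.7 minus YUMM1.1, and Rb1 is past the line in both comparisons of YUMM2.1.

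The size of the differences depended on how the libraries were scaled and, for some genes, on transcript length. The FPKM sums were 693156 in YUMM2.1, 1041960 in YUMM1.1 and 1827835 in YUMM1.7. Rescaling by the median ratio moved the median difference of all expressed genes little. It went from -0.0541 to -0.0576 in YUMM2.1 against YUMM1.1 and from -0.0185 to -0.0203 in YUMM2.1 against YUMM1.7. In YUMM1.7 against YUMM1.1 it went from 0.0163 to 0.0143. The deposited values were thus already close to that scaling, and far from a common sum. After rescaling to a common sum, the median difference of all expressed genes was 0.43 for YUMM2.1 against YUMM1.1, 1.12 for YUMM2.1 against YUMM1.7 and -0.62 for YUMM1.7 against YUMM1.1. Under that scaling, Cdk4 changed sign as given above. Cdkn2c in both comparisons of YUMM2.1, Ccnd3 against YUMM1.7, Cdk6 against YUMM1.1 and Cdkn1b in YUMM1.7 against YUMM1.1 also changed sign there. Apart from Cdk4 in YUMM2.1 against YUMM1.7, these differences were under 2-fold as deposited. Of the 14 calls over the 3 comparisons, 7 stayed past 2-fold in the same direction under each of the 6 other pseudocounts, scalings and length correction: Cdkn2a in both comparisons of YUMM2.1, Cdkn2b in both comparisons of YUMM1.1, Ccnd1 in both comparisons of YUMM1.7 and Ccnd2 between YUMM1.7 and YUMM1.1. Short transcripts read higher in YUMM1.7 in general: when expressed genes were cut into 10 groups by length, the group of shortest genes had a median difference of 0.67 from YUMM1.1 and the group of longest genes had one of -0.10. After the median of genes of like length was subtracted, Cdk6 in YUMM2.1 against YUMM1.7 stood at 0.82 and Rb1 at 1.28, and Ccnd1 in YUMM1.7 against YUMM1.1 at -2.20. Cdkn2a in YUMM1.7 against YUMM1.1 went from -0.46 to -1.13 with that subtraction, past 2-fold, and to -1.14 with a common sum. Ccnd3 in YUMM2.1 against YUMM1.1 fell short of 2-fold with the subtraction, at -0.87.

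Ratios of genes within a line do not depend on the scaling between libraries, but the dependence on transcript length does not cancel in them. The annotated transcript is 2053 nt for Cdk4, 3740 nt for Ccnd1 and 4656 nt for Rb1. In YUMM2.1 against YUMM1.7, genes in the length class of Cdk4 had a median difference of -0.35. Those in the class of Ccnd1 had one of 0.20. The summed D-cyclin FPKM was 1.76 times that of Cdk4 and Cdk6 in YUMM2.1, 2.1 times in YUMM1.1 and 0.298 times in YUMM1.7. YUMM1.7 was thus the one line with more kinase than cyclin transcript per length. The ratio of Ccnd1 to Cdk4 alone was 1.67, 1.93 and 0.247. The 4 INK4 genes summed to 46.3 FPKM in YUMM2.1, 132 in YUMM1.1 and 70.8 in YUMM1.7, which was 0.163, 0.290 and 0.103 times the FPKM of Cdk4 and Cdk6. The kinase transcripts exceeded those of the 4 INK4 genes in every line, and YUMM1.1 had the highest ratio of INK4 to kinase transcript. Cdkn2a counts in full in these sums, though its value cannot tell p16 from Arf, which is not an INK4 protein.

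The make-up of the INK4 transcripts also differed between lines. Cdkn2c held 78.3% of the INK4 FPKM in YUMM2.1 and 73.5% in YUMM1.7, but 39.9% in YUMM1.1, where Cdkn2b held 44.4%. Cdkn2b held 0.829% in YUMM1.7. Cdkn2a held 6.38% in YUMM1.1 and 8.25% in YUMM1.7. D-cyclin FPKM divided by that of Cdkn1b gave 16.8 in YUMM2.1, 64.5 in YUMM1.1 and 10.7 in YUMM1.7. Cdk4 FPKM was 42.8 times that of Rb1 in YUMM2.1, 204 times in YUMM1.1 and 442 times in YUMM1.7. Transcript ratios say nothing of protein amounts.

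**Figure D4:**
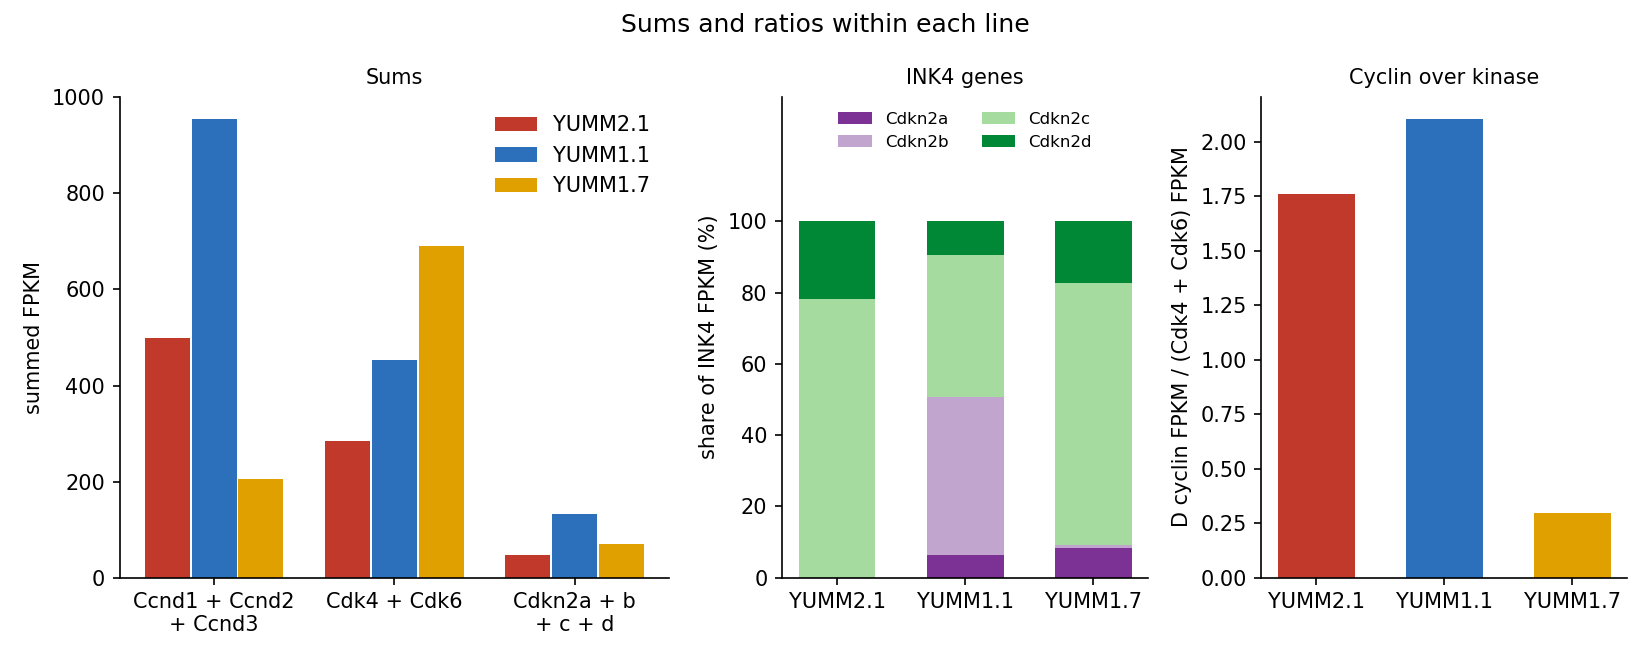
Left, summed FPKM of the D cyclins, of Cdk4 and Cdk6, and of the 4 INK4 genes in each line; middle, the share of each INK4 gene in the INK4 sum; right, D-cyclin FPKM over the FPKM of Cdk4 and Cdk6. YUMM1.7 has a cyclin to kinase ratio of 0.298 against 1.76 and 2.1, and Cdkn2b makes a large share of the INK4 sum in YUMM1.1 alone.

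The related lists are small, and their counts are to be read against the shares of all expressed genes. Differences in these lists were not corrected for transcript length, on which values in YUMM1.7 depended, as given above. Those shares were 6.21% higher and 7.64% lower in YUMM2.1 against YUMM1.1, 11.7% and 19.5% in YUMM2.1 against YUMM1.7, and 13.5% and 9.91% in YUMM1.7 against YUMM1.1, with medians of -0.05, -0.02 and 0.02. Among the other CDK inhibitors, 3 of 4 were expressed. Cdkn1a, the p53-inducible inhibitor p21, stood at 64.0 FPKM in YUMM2.1, 125 in YUMM1.1 and 36.6 in YUMM1.7. It was at least 2-fold lower in YUMM1.7 than in YUMM1.1 (difference -1.75), the one call of this list in any comparison. Cdkn3 stood at 52.6, 57.5 and 53.9 FPKM. Cdkn1c, an imprinted gene for p57, was at most 0.0737 FPKM.

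The next step of the G1 switch is cyclin E with Cdk2. Of 8 expressed genes of cyclin E, cyclin A, Cdk2 and its activators, 0 were past 2-fold in YUMM2.1 against YUMM1.1 and in YUMM1.7 against YUMM1.1, and 1 was lower in YUMM2.1 against YUMM1.7. That gene was Cdk7, a kinase that activates other CDKs, at 6.81 FPKM in YUMM2.1 and 15.9 in YUMM1.7. Of all expressed genes, 13.8% were past 2-fold in YUMM2.1 against YUMM1.1 and 23.4% in YUMM1.7 against YUMM1.1. In YUMM2.1 against YUMM1.7, 19.5% were lower. Counts this small in 8 genes are not read as a difference from these shares. The cyclin E2 gene Ccne2 stood at 7.88 FPKM in YUMM2.1, 15.9 in YUMM1.1 and 15 in YUMM1.7. Ccna2, the S-phase cyclin, stood at 41.0, 55.8 and 38.6 FPKM, and Mnat1, which assembles with Cdk7, at 15.3, 13.3 and 8.59.

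Of 12 pocket protein and E2F genes, 0 were past 2-fold in YUMM2.1 against YUMM1.1. In YUMM2.1 against YUMM1.7, 2 were higher (Rbl1 and E2f6) and 2 lower (E2f4 and the E2F partner gene Tfdp1). In YUMM1.7 against YUMM1.1, E2f4 was higher and E2f6 lower. These counts are near the shares of all expressed genes, 11.7% and 19.5% in the former comparison and 13.5% and 9.91% in the latter. E2f6, a repressor of the family, stood at 67.2 FPKM in YUMM2.1, 41.3 in YUMM1.1 and 16.9 in YUMM1.7. E2f4, which works with the pocket proteins in resting cells, stood at 8.08, 10.8 and 31.7 FPKM. E2f1, an activator, stood at 22.7, 26.7 and 23.7 FPKM.

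The 16 E2F target genes, which act in DNA replication and nucleotide synthesis, had a median difference of -0.01 in YUMM2.1 against YUMM1.1, with 0 past 2-fold in either direction. In YUMM2.1 against YUMM1.7, 1 was higher and 5 were lower (median -0.16), and in YUMM1.7 against YUMM1.1, 3 were higher and 1 was lower (median 0.21). The shares of all expressed genes were 11.7% higher and 19.5% lower in the former and 13.5% and 9.91% in the latter, so the 3 higher and 1 lower are near the background. The helicase subunit gene Mcm5 stood at 14.3 FPKM in YUMM2.1, 28.5 in YUMM1.1 and 60.2 in YUMM1.7, and the replication licensing gene Cdt1 at 8.36, 9.16 and 26.6. Rrm2, a subunit of ribonucleotide reductase, went the other way, at 125, 121 and 52.0 FPKM.

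Of 8 genes that act on the turnover or folding of these proteins, 0 were past 2-fold in YUMM2.1 against YUMM1.1. In YUMM2.1 against YUMM1.7, 1 was higher (Gsk3b) and 3 were lower (Cks1b, Fbxo4 and Fbxo31), and in YUMM1.7 against YUMM1.1, 2 were higher (Cks1b and Fbxo31). The shares of all expressed genes were 11.7% higher and 19.5% lower against YUMM1.7 for YUMM2.1, and 13.5% higher for YUMM1.7, so the single higher gene is at the background. Cks1b, a cofactor in the degradation of p27, stood at 360 FPKM in YUMM2.1, 487 in YUMM1.1 and 1530 in YUMM1.7. Its partner Skp2 stood at 4.03, 5.25 and 5.23 FPKM. Fbxo31, a ubiquitin ligase subunit reported to act on cyclin D1 in human cells, stood at 2.30, 5.15 and 12.3 FPKM, and Fbxo4 at 3.41, 6.19 and 10.5. Gsk3b, a kinase that marks cyclin D1 for export and degradation, stood at 9.65, 6.57 and 4.23 FPKM.

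Of 16 genes known to regulate the INK4 locus, many of them Polycomb genes, 0 were higher and 1 was lower in YUMM2.1 against YUMM1.1, and 0 were past 2-fold against YUMM1.7. In YUMM1.7 against YUMM1.1, 1 was higher (Ets2) and 3 were lower (Id1, Tbx2 and Ets1). Of all expressed genes, 7.64% were lower in YUMM2.1 against YUMM1.1, so 1 of 16 is near the background. Past 2-fold either way were 31.3% in YUMM2.1 against YUMM1.7, and in YUMM1.7 against YUMM1.1 13.5% were higher and 9.91% lower. The Polycomb genes Bmi1 and Ezh2 stood at 26.9 and 22.1 FPKM in YUMM2.1, 14.3 and 21.5 in YUMM1.1, and 21.4 and 12.9 in YUMM1.7. Id1, a BMP target that opposes Ets factors at the p16 start in human cells, stood at 71.2, 168 and 46.8 FPKM and was that list's gene lower in YUMM2.1 (difference -1.23). Ets1 stood at 12.6, 17.4 and 6.69 FPKM, Ets2 at 3.80, 2.59 and 7.03, and Tbx2, a repressor of the locus, at 2.07, 3.94 and 0.650.

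**Figure D5:**
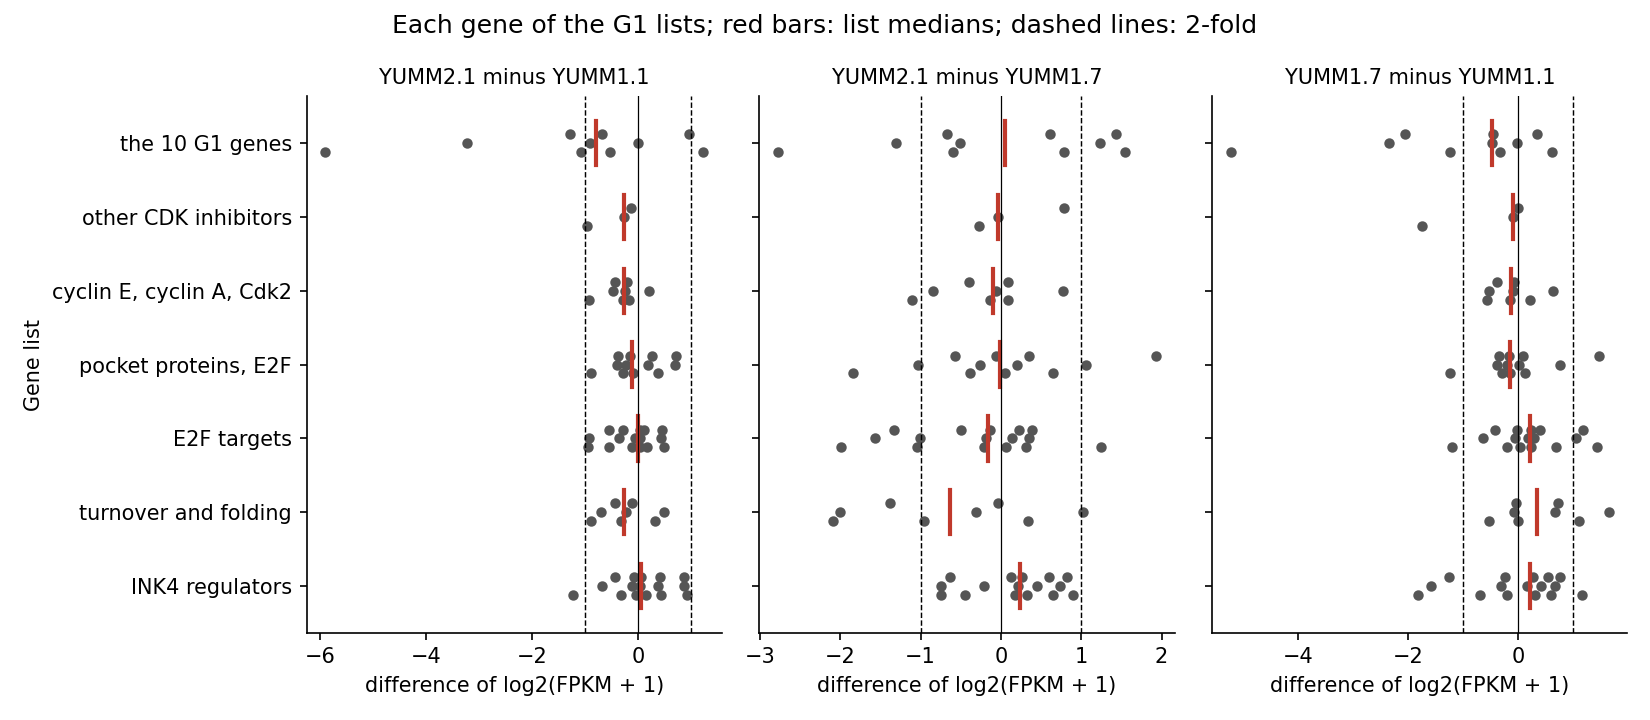
Difference of log2(FPKM + 1) for each expressed gene of the 10 G1 genes and 6 related lists in the 3 pairs of lines; red bars are list medians and dashed lines mark 2-fold. In YUMM2.1 against YUMM1.1 the 6 related lists lie between the dashed lines except for Id1, and 5 of the 10 G1 genes lie beyond them, as do 13.8% of all expressed genes; the genes beside Cdkn2a, of which 4 of 5 expressed ones lie beyond, are not plotted.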

How the data were processed

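Total RNA of 3 cell lines was sequenced as 1 library per line. Per the submitters' processing notes, TopHat2 2.0.9, Cufflinks and Cuffnorm were used, and the authors deposited FPKM per gene symbol. Which genome build, annotation, filters and between-library scaling they used is not given here by any label. Values were used as deposited, as log2(FPKM + 1), for symbols at 1 FPKM or more in at least 1 line, and a difference of 1 was the rule for a call. The 10 genes and the lists were chosen with earlier results of these data known. All 10 are named, with up to 4 genes of largest difference from each list and some of its best known members, chosen after values were seen. Some genes and alleles that this rule or the lines' description would name are not reported here.

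Read counts were not used. The value of 1 fragment was read from the spacing of low FPKM values times length. This used 808 symbols annotated with 1 transcript, 3000 nt or longer. Of their low values, 75.9% (YUMM1.7) to 81.3% (YUMM1.1) lay within 0.2 of a whole multiple. The implied depths follow from it only without scaling between libraries. Lengths are of the longest coding transcript in GENCODE M21, found for 85.0% of expressed symbols. Gene order and start regions are from RefSeq, GRCm38.p6, which need not be the authors' build, and 7 of the 10 genes had a start region. The call rule and the depth step were tried on simulated data. For the call rule these had counting noise only and planted changes larger than 2-fold. They had no spread between cultures and no length dependence, so they give no error rate for the 2-fold rule here. Alternatives were pseudocounts of 0.1 and 5, 3 rescalings, no filter, a filter at 5 FPKM, a 4-fold rule and, added after the data were seen, subtraction of the median of genes of like length in 10 classes. Python 3.11.15, numpy 2.4.6, pandas 2.3.3, matplotlib 3.10.9 and Biopython 1.88 were used.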

Additional observations from a re-analysis of the deposited data

How the results depend on the processing

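The filters, the median ratio scaling and the other settings not named here left the counts of G1 genes past 2-fold within 1.5 times. For YUMM2.1 against YUMM1.1 (1 higher, 4 lower), the genes higher were 2 with a pseudocount of 0.1, with a common sum and with a common upper quartile, and 0 with a pseudocount of 5 and with a 4-fold rule. The total was 3 with a pseudocount of 5 and 2 with a 4-fold rule, and the genes lower were 2 with a common sum and with a 4-fold rule. For YUMM2.1 against YUMM1.7 (3 higher, 2 lower), the total was 3 with a pseudocount of 5 (1 higher), 1 with a 4-fold rule (0 higher, 1 lower) and 3 with subtraction of the length median (1 lower). A common sum gave 5 higher and 1 lower there. For YUMM1.7 against YUMM1.1, no listed setting moved the 4 genes lower by over 1.5 times. Cdk4 in YUMM2.1 against YUMM1.7 was reversed with a common sum, at 0.089 in place of -1.31, where all genes had a median of 1.12. The cause of the other moves was not tested. No paired analysis was possible because each line has 1 library. Without replicates, depth limits counting error only.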

Other observations

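Ppap2b and Ssbp3, on chromosome 4 but outside the run around Cdkn2a, were also low in YUMM2.1 alone. Of the 6155 symbols at 5 FPKM or more in both YUMM1.1 and YUMM1.7, 7 were below 0.05 FPKM in YUMM2.1. On chromosome 4, which holds 6.28% of the symbols with a known chromosome, lie 5 of these 7. Among the 5, Cdkn2a, Mtap and Klhl9 belong to the run already described. The 5 are thus not independent of one another, and 5 of 7 cannot be read against that 6.28%. Those elsewhere were Mbi-39, on chromosome 11, and Snora69, on chromosome X. The others on chromosome 4 were Ppap2b, a lipid phosphatase gene (listed at 0 in YUMM2.1, 16.7 FPKM in YUMM1.1, 10.7 in YUMM1.7), and Ssbp3, a cofactor of LIM-domain transcription factors (0.00365, 5.66 and 13.5 FPKM). In the order of the table's symbols these are 67 and 78 places beyond Cdkn2a, and Cdkn2c is 121 places beyond it.

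The neighbors of Ppap2b and Ssbp3 did not share their low values. Whether these single values are failed estimates, as a listed 0 can be, was not tested. Oma1 and Usp24, the expressed genes on either side of Ppap2b, stood at 3.32 and 3.06 FPKM in YUMM2.1, and Ttc4 and Mrpl37, on either side of Ssbp3, at 9.39 and 9.78. The pattern was noticed in the data, the limits of 5 and 0.05 FPKM were set after it was seen, and it was given no test.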
